A study of Mus musculus with 15 samples.

Results

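The 10 genes described here encode the contractile apparatus of smooth muscle, its transcriptional coactivator and the muscarinic receptors through which acetylcholine acts on it: Acta2, Myh11, Tagln, Cnn1, Des, Smtn, Lmod1, Myocd, Chrm2 and Chrm3. They were chosen by symbol, with earlier results of these data known, from the 24054 gene rows of a whole-lung RNA-seq table. All 10 had enough counts to enter the test, which covered 15905 genes. Lungs came from 15 female wild-type Balb mice in 3 groups of 5. Mice of the saline group had a sham sensitisation and an isotype control antibody. Those of the OVA group were sensitised to ovalbumin by the systemic route, challenged with nebulised ovalbumin and received the same kind of isotype control. The anti-IL-4Ra group had ovalbumin and 30 mg/kg of a monoclonal antibody to mouse IL-4Ra, the receptor subunit shared by IL-4 and IL-13. Ages, ovalbumin schedules and antibody timing were not given in the sources used here.

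Smooth muscle wraps the airways and the larger lung vessels. It shortens when calcium activates myosin light chain kinase and myosin pulls on actin filaments. In the airway, acetylcholine from parasympathetic nerves acts on M3 receptors, which couple to Gq and release calcium, and on M2 receptors, which couple to Gi and oppose relaxation. Most contractile genes are switched on by serum response factor, which binds a sequence called the CArG box, with its coactivator myocardin. In whole lung the same transcripts can come from airway muscle, vessel muscle, myofibroblasts and other cells. Des, Myocd and Chrm2 are also known from heart muscle, which lines the pulmonary veins of mice.

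Promoter windows from RefSeq (build GRCm38.p6), running from 250 bases before to 50 bases after the gene's start, were found for 7 of the 10 genes. Acta2 is shown because its window is the single one of the 7 with a CArG-like match. Des, Chrm2 and Chrm3 are shown because they were the genes called in a comparison. The motif searched was the CArG box with at most 1 of its 6 inner bases, between CC and GG, other than A or T. It reads alike on both strands, and overlapping matches were allowed. The Acta2 window is chr19:34255324-34255623 on the minus strand, the Des window chr1:75360042-75360341 on the plus strand, the Chrm2 window chr6:36387834-36388133 on the plus strand and the Chrm3 window chr13:10360754-10361053 on the minus strand. All are written 5′ to 3′, and capitals mark the matches.
Acta2: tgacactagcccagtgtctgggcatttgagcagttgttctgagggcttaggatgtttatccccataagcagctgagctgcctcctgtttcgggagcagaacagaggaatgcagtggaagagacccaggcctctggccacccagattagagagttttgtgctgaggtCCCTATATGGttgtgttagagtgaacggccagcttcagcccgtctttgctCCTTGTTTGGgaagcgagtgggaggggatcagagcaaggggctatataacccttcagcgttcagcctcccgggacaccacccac
Des: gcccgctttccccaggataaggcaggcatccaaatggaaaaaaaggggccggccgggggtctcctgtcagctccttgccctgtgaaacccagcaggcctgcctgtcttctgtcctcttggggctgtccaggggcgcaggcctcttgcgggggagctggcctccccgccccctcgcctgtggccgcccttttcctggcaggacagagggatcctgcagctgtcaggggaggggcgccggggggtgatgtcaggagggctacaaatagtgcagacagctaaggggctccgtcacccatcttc
Chrm2: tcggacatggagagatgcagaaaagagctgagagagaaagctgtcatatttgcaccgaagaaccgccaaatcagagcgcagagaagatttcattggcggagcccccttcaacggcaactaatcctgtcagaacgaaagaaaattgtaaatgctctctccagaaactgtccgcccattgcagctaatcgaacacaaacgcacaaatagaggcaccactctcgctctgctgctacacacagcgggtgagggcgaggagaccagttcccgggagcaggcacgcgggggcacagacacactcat
Chrm3: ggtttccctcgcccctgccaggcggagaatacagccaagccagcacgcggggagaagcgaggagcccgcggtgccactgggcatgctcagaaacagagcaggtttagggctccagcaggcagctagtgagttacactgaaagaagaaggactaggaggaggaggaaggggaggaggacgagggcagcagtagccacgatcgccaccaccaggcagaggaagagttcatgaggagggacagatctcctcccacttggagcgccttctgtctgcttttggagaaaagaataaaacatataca

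The Acta2 window held 2 matches, CCCTATATGG beginning 84 bases and CCTTGTTTGG beginning 34 bases before the start, each with 1 inner base other than A or T. Of 32851 windows of the same length, 9.98% held at least 1 such match and 0.822% held at least 2, while 1.63% held the strict form with A or T at every inner base. The windows of Des, Chrm2, Chrm3, Cnn1, Smtn and Lmod1 held no match, which says only that these letters are not in these 300 bases.

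Saline libraries were the deepest, with 16774285 to 27570666 expected counts each; the OVA libraries had 10042825 to 14706131 and the anti-IL-4Ra libraries 12317805 to 16914475. Levels below are CPM, counts scaled to a common total after TMM normalization, and libraries are numbered 1 to 5 by their replicate label. All 10 genes had counts in every library. One library of each OVA-exposed group stood apart: OVA library 3 was the highest of its group for 10 of 10 genes, and anti-IL-4Ra library 5 was the highest of its group for 8 of 10. The summed level of 15 heart muscle genes (Myh6 and others) lay between 807 and 2402 CPM in saline lungs, 223 and 2120 CPM in OVA lungs and 138 and 639 CPM in anti-IL-4Ra lungs. The share of counts on Rn45s, the ribosomal RNA precursor, lay between 1.19 and 2.88% in saline lungs, 4.31 and 12.4% in OVA lungs and 1.65 and 12.4% in anti-IL-4Ra lungs.

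Per kilobase of exon, the saline libraries held most Tagln and Acta2 RNA among the 10 genes. Tagln was at 67.6 ± 12.3 CPM per kilobase (mean ± SD, n = 5 throughout) and Acta2 at 65.7 ± 6.03, a difference within their spread. Des followed at 40.7 ± 6.49 and Myh11 at 34.8 ± 2.70, a gap smaller than the SD of Des. Smtn at 15.5 ± 2.16 and Cnn1 at 11.9 ± 1.30 came next, and Lmod1 stood well below them at 4.71 ± 0.48. The receptors and the coactivator were scarcest, with Chrm2 at 2.25 ± 0.528, Myocd at 1.24 ± 0.21 and Chrm3 at 1.00 ± 0.217, of which the last pair overlap. The mean of Myocd stood above that of Chrm2 in OVA lungs (1.83 against 1.22 CPM per kilobase) and in anti-IL-4Ra lungs (1.18 against 0.797), the reverse of the saline order, though single libraries overlapped in both groups.

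**Figure D1:**
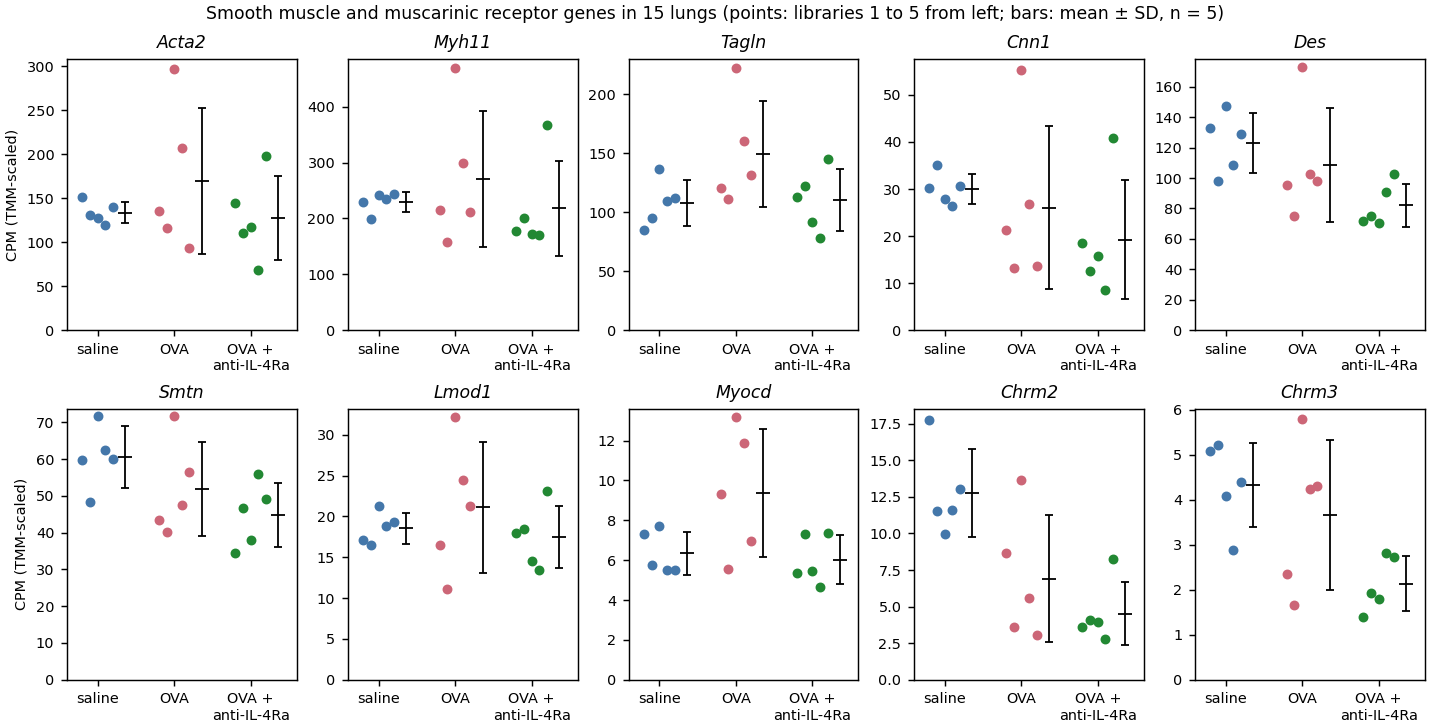
Level of each of the 10 genes in each library, as TMM-scaled CPM; points are single libraries and bars the mean ± SD of a group of 5. The saline libraries lie close together for most genes, and OVA library 3 and anti-IL-4Ra library 5 lie above their groups for most of them. Chrm2 of all 5 anti-IL-4Ra libraries (2.76 to 8.24) lies below all 5 saline libraries (9.94 to 17.8).

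The comparison of OVA with saline asks what the allergic lung does to the muscle genes. None of the 10 was called by edgeR's quasi-likelihood test at an adjusted p under 0.05, where 37.1% of all genes tested were (19.3% higher, 17.8% lower), and in none did the groups stop overlapping, against 26.6% of all genes. At an unadjusted p under 0.05 there were 3 (Tagln and Myocd with higher means, Chrm2 with a lower mean), against 46.7% of all genes. DESeq2 called 2 of these, Myocd higher (adjusted p = 0.0476) and Chrm2 lower (0.0495), among 41.0% of all genes, and limma voom called Chrm2 lower (adjusted p = 0.0229) among 37.6%. The median log2 change of the 10 genes was 0.00, beside 0.02 over all genes. The median without OVA library 3 was -0.26, with 2 of 10 estimates above 0 in place of 5 and 3 genes called lower. Other settings moved the median up, to 0.16 without OVA library 2 and 0.69 with the Rn45s share as a covariate. The Rn45s fit had 7 of 10 estimates above 0 and 1 gene called higher (4.73% of all genes were called). That share did not overlap between these groups, so this fit cannot tell it from the group. With single libraries left out, 0 to 3 genes had an unadjusted p under 0.05, and there were 0 without OVA library 4. The OVA libraries differed widely among themselves for these genes, as the single values show.

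Acta2, the actin of smooth muscle and myofibroblast filaments, was at 151, 131, 127, 119 and 140.3 CPM in saline libraries 1 to 5. With OVA it was at 135, 116, 297, 206 and 93.4 CPM. The OVA libraries thus lay on both sides of the saline range, with library 3 far above it and library 5 below it. Its log2 change was 0.34 ± 0.29 (± SE; 95% interval -0.27 to 0.96, adjusted p = 0.366), and without OVA library 3 it was -0.0060.

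Myh11, the smooth muscle myosin heavy chain, was the steadiest of the 10 genes with saline, at 229, 199.6, 242, 234 and 244 CPM. With OVA it stood at 215, 159, 468, 299 and 211 CPM. Its highest and lowest libraries differed 1.22-fold with saline and 2.95-fold with OVA, and the groups overlapped. On the log2 scale the change was 0.24 ± 0.26 (interval -0.32 to 0.79, adjusted p = 0.506), and -0.11 without OVA library 3.

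Tagln, the actin-binding protein transgelin, had the largest positive estimate among the filament genes, with means of 149 ± 45 CPM in OVA lungs against 108 ± 19.6 CPM. The saline libraries read 85.1, 95, 137, 109.7 and 112 CPM and the OVA libraries 120.5, 112, 223, 160.2 and 132 CPM. Saline library 3 lay above 3 of the 5 OVA libraries, so the groups overlapped. This gave a log2 change of 0.47 ± 0.20 (interval 0.04 to 0.90, adjusted p = 0.0775, edgeR). It was 0.23 without OVA library 3 (adjusted p = 0.341). The estimate passed the threshold without saline library 3 (0.57, adjusted p = 0.0493) and with the Rn45s share as a covariate (0.97 ± 0.23, adjusted p = 0.0309, in a fit that called 4.73% of all genes). That share did not overlap between saline and OVA libraries, so the covariate fit cannot tell it from the group.

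Cnn1, calponin, which binds actin and slows myosin cycling, spread widely. It was at 30.3, 35.0, 27.9, 26.4 and 30.5 CPM with saline, and at 21.4, 13.2, 55.2, 26.8 and 13.6 CPM with OVA. In the OVA group 3 libraries lay below every saline library while library 3 lay above every one. Its SD of log2 CPM within the OVA group, 0.83, was above that of 97.1% of all tested genes. The estimate was a log2 change of -0.20 ± 0.40 (interval -1.04 to 0.64, adjusted p = 0.719). With OVA library 3 and anti-IL-4Ra library 5 both left out, a choice made after their high values were seen, it was -0.67 (adjusted p = 0.0355).

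Des, desmin, the intermediate filament that ties myofibrils together, was at 133, 98.2, 147, 109 and 129 CPM with saline. With OVA it was at 95.6, 74.8, 173, 103 and 97.7 CPM. OVA library 3 held the highest value of both groups, libraries 1, 2 and 5 lay below every saline library and library 4 within the saline range. In edgeR the log2 change was -0.18 ± 0.19 (interval -0.59 to 0.23, adjusted p = 0.487). Without OVA library 3, Des was called lower at -0.46 (adjusted p = 0.0253).

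Smtn, smoothelin, a cytoskeletal protein of contractile smooth muscle, was at 48.2 to 71.8 CPM with saline and 40.2 to 71.7 CPM with OVA. Its log2 change was -0.22 ± 0.17 (interval -0.58 to 0.14, adjusted p = 0.32), and -0.42 (adjusted p = 0.0462) without OVA library 3. Lmod1, leiomodin, which nucleates actin filaments in smooth muscle, was at 16.5 to 21.2 CPM with saline and 11.1 to 32.2 CPM with OVA. Its log2 change was 0.19 ± 0.22 (interval -0.29 to 0.66, adjusted p = 0.538), and -0.07 without OVA library 3. The ranges of both genes overlapped between the groups.

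Myocd, myocardin, the coactivator of serum response factor, had the largest positive estimate. Its saline libraries were at 7.30, 5.74, 7.72, 5.50 and 5.50 CPM and its OVA libraries at 9.32, 5.54, 13.2, 11.9 and 6.97 CPM. OVA libraries 1, 3 and 4 lay above every saline library and libraries 2 and 5 within the saline range. The log2 change was 0.57 ± 0.23 (interval 0.08 to 1.05, adjusted p = 0.0611, edgeR). It was 0.36 without OVA library 3 (adjusted p = 0.226). It was called higher without OVA library 2 (0.71, adjusted p = 0.0203) and without OVA library 5 (0.65, adjusted p = 0.0439).

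Chrm2, the Gi-coupled M2 receptor, had the largest negative estimate of the 10. It was at 17.8, 11.5, 9.94, 11.6 and 13.0 CPM in the saline libraries. With OVA it was at 8.64, 3.64, 13.6, 5.61 and 3.08 CPM. In the OVA group 4 libraries lay below every saline library, and OVA library 3 lay above 4 of the 5 saline libraries. Its log2 change was -0.87 ± 0.37 (interval -1.65 to -0.10, adjusted p = 0.0714, edgeR). Without OVA library 3, Chrm2 was called lower at -1.32 (adjusted p = 0.00703), and without anti-IL-4Ra library 5, which enters the shared estimate of spread, at -0.87 (0.0487). With the heart muscle genes as a covariate it was called at -0.83 (adjusted p = 0.0256, in a fit that called 35.1% of all genes).

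Chrm3, the Gq-coupled M3 receptor, was the scarcest of the 10, at 5.08, 5.23, 4.09, 2.89 and 4.40 CPM with saline. With OVA it was at 2.35, 1.65, 5.81, 4.24 and 4.31 CPM. OVA libraries 1 and 2 lay below the saline range, library 3 above it and the other 2 within it. On the log2 scale the change was -0.24 ± 0.30 (interval -0.88 to 0.40, adjusted p = 0.556). It was -0.52 without OVA library 3 and -0.056 without OVA library 2, and called in neither case.

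**Figure D2:**
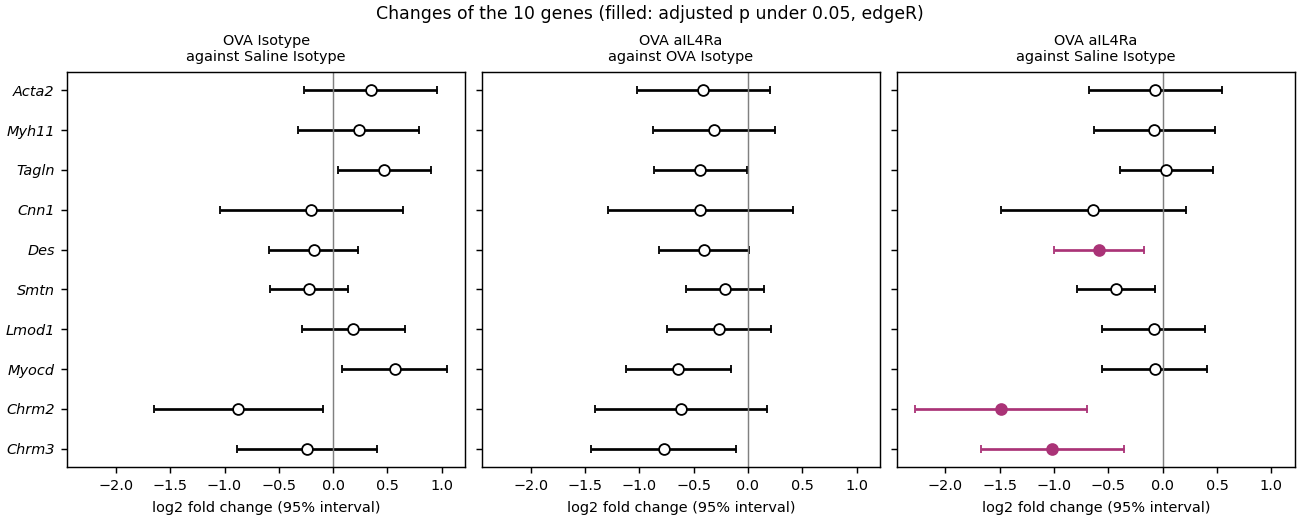
Log2 fold change of the 10 genes in the 3 comparisons, from edgeR; points are estimates, bars 95% intervals, and filled points have an adjusted p under 0.05. No gene is filled for OVA against saline or for anti-IL-4Ra against OVA. Chrm2 (-1.49), Chrm3 (-1.01) and Des (-0.58) are filled for anti-IL-4Ra against saline.

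The comparison of anti-IL-4Ra with OVA asks whether blocking the receptor changes the muscle genes of the allergic lung. None of the 10 was called by edgeR, DESeq2 or limma voom, in a comparison in which these tools called 0.302% (0.138% higher, 0.163% lower), 0.805% and 0.321% of all genes, and no member had groups without overlap (1.17% of all genes). All 10 log2 estimates lay below 0, with a median of -0.42 beside 0.00 over all genes. Without OVA library 3 the median was -0.12, with 2 estimates above 0, and without anti-IL-4Ra library 5 it was -0.60. At an unadjusted p under 0.05 there were 3 with edgeR (Tagln, Myocd and Chrm3) against 5.68% of all genes, 3 with DESeq2 and 2 with voom. That count was 0 without OVA library 3 or 4, 1 without anti-IL-4Ra library 1, 2 or 3, 5 without OVA library 2 and 8 without anti-IL-4Ra library 5, and edgeR called none of the 10 in any of these fits. In this bulk tissue, fewer cells that carry these transcripts and less RNA per such cell cannot be told apart.

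Myocd, 9.38 ± 3.21 CPM with OVA, was at 5.37, 7.30, 5.46, 4.64 and 7.38 CPM with anti-IL-4Ra. These values lie within or below the saline range and overlap the lower OVA libraries. This gave a log2 change of -0.64 ± 0.23 (interval -1.13 to -0.15, adjusted p = 0.576, edgeR). Tagln was at 113, 122, 91.7, 78.5 and 146 CPM, again overlapping both other groups, with a change of -0.44 ± 0.20 (interval -0.87 to -0.01, adjusted p = 0.852). Chrm3 was at 1.40, 1.93, 1.80, 2.83 and 2.73 CPM, below 3 of the 5 OVA libraries, with a change of -0.77 ± 0.31 (interval -1.44 to -0.11, adjusted p = 0.694).

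The other filament genes had intervals that included 0. Acta2 was at 144, 110.2, 117, 68.8 and 198 CPM with anti-IL-4Ra (-0.41 ± 0.29, interval -1.03 to 0.20). Myh11 was at 178, 201, 171, 171 and 367 CPM (-0.31 ± 0.26, interval -0.87 to 0.25). In both genes library 5 stood well above the other 4. Without OVA library 3 the Myh11 change was 0.0061 and that of Cnn1 0.06, against -0.44 ± 0.40 for Cnn1 with all libraries. Des (-0.41 ± 0.19, interval -0.82 to 0.01), Smtn (-0.21 ± 0.17, -0.57 to 0.15) and Lmod1 (-0.27 ± 0.23, -0.75 to 0.21) also had estimates below 0. Chrm2 was at -0.62 ± 0.37 (interval -1.41 to 0.18), and without OVA library 3 at -0.19. The heart muscle list had a median log2 change of -1.80 in the same comparison, with 0 of 14 tested genes called by edgeR or voom, 1 by DESeq2, and 11 at an unadjusted p under 0.05. With that list as a covariate, 3 of the 10 estimates lay above 0 (Myh11 at 0.0096, Cnn1 at 0.19 and Chrm2 at 0.20), and none of the 10 was called (0.289% of all genes).

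**Figure D3:**
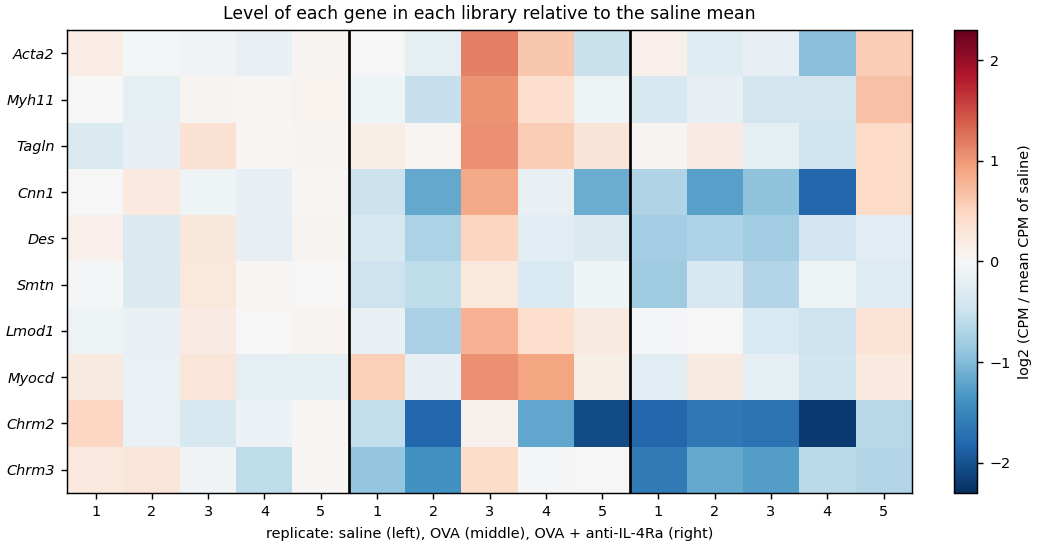
Level of each gene (rows) in each of the 15 libraries (columns, replicates 1 to 5 of each group), as log2 of CPM over the saline mean; red is above and blue below the saline mean. OVA library 3 is red in every row, and Chrm2 and Chrm3 are blue in all 5 anti-IL-4Ra libraries.

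The third comparison sets the anti-IL-4Ra group against saline. It shares its libraries with both comparisons above, so its values are not independent of theirs. Here 3 genes fell, Chrm2, Chrm3 and Des, and none rose. Called genes made up 26.6% of all genes tested, with 12.7% lower and 13.9% higher. In Chrm2 and Chrm3 the groups did not overlap, as in 19.8% of all genes (10.3% on the lower side). DESeq2 (31.8% of all genes called) and voom (27.9%) also called 3 of the 10 lower. The median log2 change of the 10 was -0.26, beside 0.02 over all genes, and -0.41 without anti-IL-4Ra library 5.

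Chrm2 was at 3.64, 4.06, 3.93, 2.76 and 8.24 CPM with anti-IL-4Ra. Its mean of 4.52 ± 2.14 CPM compared with 12.8 ± 3.00 CPM in saline lungs, and even library 5, the highest, lay below the lowest saline library (9.94). The estimate was a log2 change of -1.49 ± 0.37 (interval -2.28 to -0.70, adjusted p = 0.00934, edgeR). The call held with each of the 15 libraries left out in turn, at -1.83 to -1.34 (adjusted p 0.00265 to 0.0277). The heart muscle genes moved in the same direction, with 8 of 14 tested genes called lower, a median of -1.71 and 10 of 15 without overlap. Sln, the atrial regulator of the calcium pump, had 65 to 483 counts in the saline libraries. It was at 0 in anti-IL-4Ra libraries 1 and 2. Myl2, the ventricular light chain, had 0 to 8 counts in every library of the study. Other genes of the heart muscle list were not so scarce, with Myl3 at 29 to 54 and Myh7 at 2503 to 4697 counts in saline libraries. Which heart muscle these transcripts came from was not tested. With this list as a covariate the Chrm2 change was -0.63 ± 0.35 (adjusted p = 0.278), and with the Rn45s share it was -0.90 ± 0.43 (0.26). The heart muscle level did not overlap between these groups, and the Rn45s share overlapped through anti-IL-4Ra library 5 alone. These fits therefore cannot tell covariate from group, for Chrm2 or for Chrm3 and Des below.

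Chrm3, which the plain values above place at 1.40 to 2.83 CPM with anti-IL-4Ra, averaged 2.14 ± 0.616 CPM against 4.34 ± 0.939 CPM with saline. Its highest treated library lay just below its lowest saline library (2.89). In edgeR the log2 change was -1.01 ± 0.31 (interval -1.67 to -0.36, adjusted p = 0.0246, edgeR). The call was lost without saline library 1 (-0.95, adjusted p = 0.0552), anti-IL-4Ra library 1 (-0.92, 0.0611) or anti-IL-4Ra library 3 (-0.96, 0.063). It was -0.78 ± 0.39 (adjusted p = 0.221) with the heart muscle covariate and -0.84 ± 0.42 (0.286) with the Rn45s covariate.

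Des was at 71.5, 75.2, 70.4, 90.6 and 103 CPM with anti-IL-4Ra, a mean of 82.1 ± 14.2 against 123 ± 19.6 CPM. In the treated group 4 libraries lay below every saline library and library 5 above the lowest of them. The log2 change was -0.58 ± 0.19 (interval -1.0 to -0.17, adjusted p = 0.036, edgeR). The call was lost without saline library 1 (adjusted p = 0.073), 3 (0.081) or 5 (0.0715), or without anti-IL-4Ra library 1 (0.0818), 2 (0.0562) or 3 (0.0894). With the heart muscle covariate the change was -0.27 ± 0.22 (adjusted p = 0.475), and with the Rn45s covariate -0.40 ± 0.26 (0.4).

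**Figure D4:**
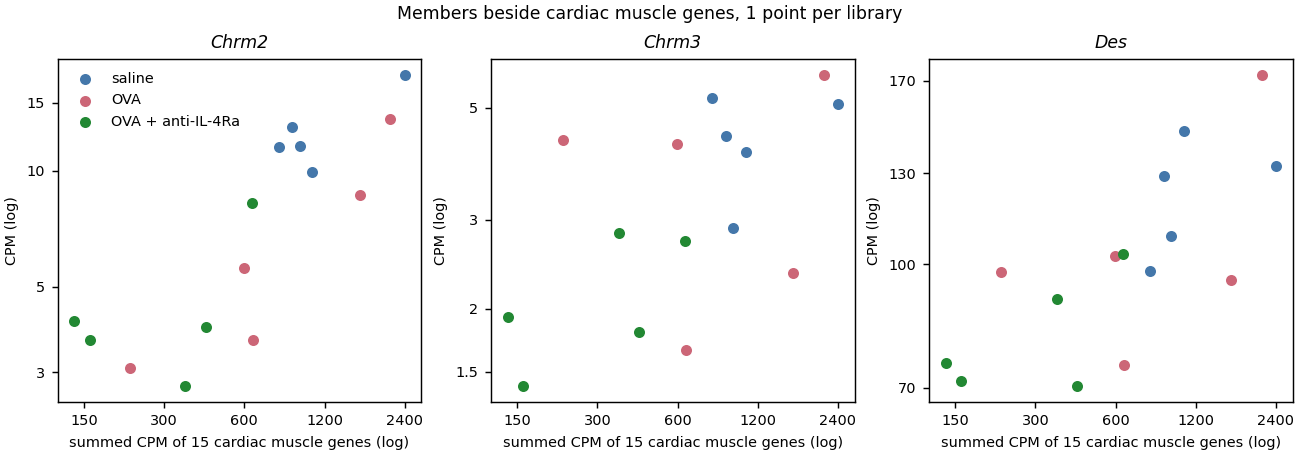
Level of Chrm2, Chrm3 and Des in each library (vertical log axis, CPM) against the summed level of 15 heart muscle genes in the same library (horizontal log axis, CPM). The 5 anti-IL-4Ra libraries lie at 138 to 639 on the horizontal axis, below all 5 saline libraries (807 to 2402), and the OVA libraries spread from 223 to 2120.

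Smtn, at 34.4, 46.8, 37.9, 56.1 and 49.1 CPM with anti-IL-4Ra, just missed the threshold. Its log2 change was -0.43 ± 0.17 (interval -0.79 to -0.07, adjusted p = 0.0704), and the groups overlapped. It was called lower without saline library 2 (adjusted p = 0.0463), OVA library 3 (0.0328) or anti-IL-4Ra library 4 (0.0369). Cnn1 was at 18.5, 12.7, 15.7, 8.61 and 40.8 CPM, where 4 libraries lay below every saline library and library 5 above every one. Its change was -0.64 ± 0.40 (interval -1.49 to 0.21, adjusted p = 0.25), and -1.12 (adjusted p = 0.03) without library 5.

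The group means of Acta2, Myh11, Tagln, Lmod1 and Myocd were close to their saline means. Treated libraries 2, 3 and 4 for Acta2, and 1, 3 and 4 for Myh11, nevertheless lay below every saline library. The Acta2 means were 128 ± 47.6 CPM with anti-IL-4Ra and 134 ± 12.3 CPM with saline (log2 change -0.07 ± 0.29, adjusted p = 0.884). Without OVA library 3 and anti-IL-4Ra library 5, left out after their high values were seen, the Acta2 change was -0.28 (adjusted p = 0.362, edgeR). Myh11 averaged 218 ± 84.4 against 230 ± 17.8 CPM (-0.08 ± 0.26, adjusted p = 0.852), and without anti-IL-4Ra library 5 the change was -0.35 (adjusted p = 0.275). Tagln averaged 110 ± 26.2 against 108 ± 19.6 CPM (0.03 ± 0.20, adjusted p = 0.92). Lmod1 averaged 17.5 ± 3.82 against 18.6 ± 1.89 CPM (-0.08 ± 0.22, adjusted p = 0.807), and Myocd 6.03 ± 1.24 against 6.35 ± 1.07 CPM (-0.07 ± 0.23, adjusted p = 0.834). These 5 intervals all included 0.

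**Figure D5:**
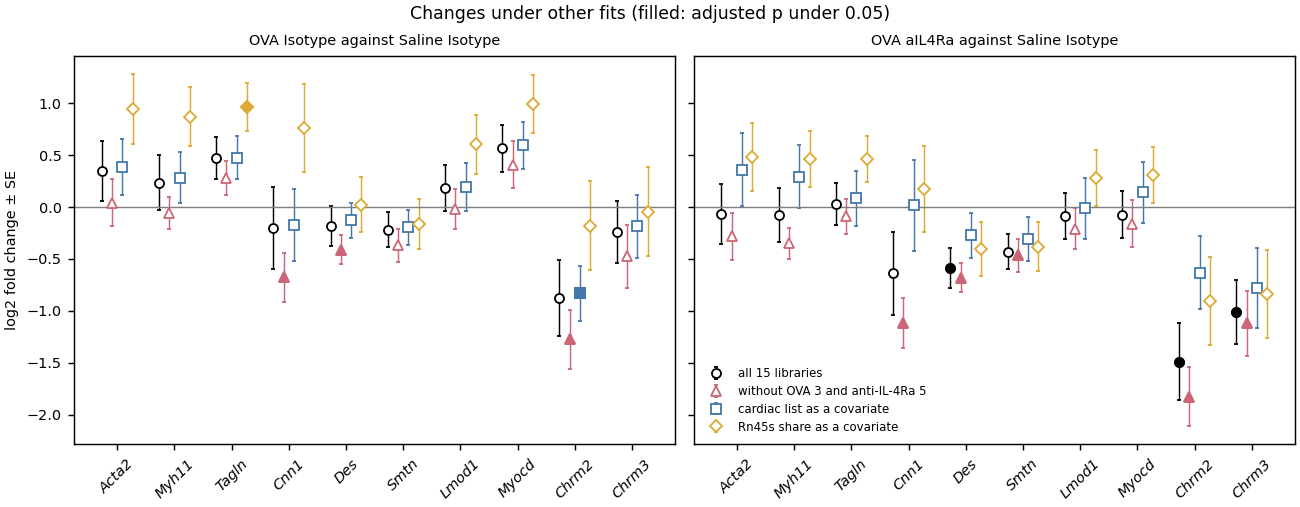
Log2 fold change ± SE of the 10 genes against saline, for OVA (left) and anti-IL-4Ra (right), under 4 fits; filled points have an adjusted p under 0.05. Without OVA library 3 and anti-IL-4Ra library 5, left out after their high values were seen, 3 genes are filled on the left and 5 on the right. With the heart muscle or Rn45s covariate none is filled on the right.

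With OVA library 3 and anti-IL-4Ra library 5 both left out, an alternative chosen after the values were seen, Chrm2 (-1.28, adjusted p = 0.003), Cnn1 and Des (-0.41, 0.031) were called lower for OVA against saline, where 39.8% of all genes were called. In that fit 5 genes were called lower for anti-IL-4Ra against saline (30.0% of all genes): Chrm2 (-1.83, adjusted p = 0.000568), Chrm3 (-1.12, 0.0163), Cnn1 (-1.12, 0.00409), Des (-0.68, 0.00319) and Smtn (-0.46, 0.041). The libraries left out were the highest of their groups for 10 and 8 of the 10 genes. Leaving them out lowers most group means by construction, so the added calls are no separate evidence of a fall. With the heart muscle covariate 9.23% of all genes were called for anti-IL-4Ra against saline, and with the Rn45s covariate 2.35%, and edgeR called 0 of the 10 genes in both, with 0 at an unadjusted p under 0.05. The heart muscle level separated these groups and the Rn45s share nearly did, so the lost calls cannot be assigned to covariate or group.

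Ratios of genes within a library do not depend on how libraries are scaled. The log2 ratio of Chrm2 to Chrm3 counts was 1.55 ± 0.36 with saline, 0.83 ± 0.89 with OVA and 1.01 ± 0.62 with anti-IL-4Ra. The linear ratio in OVA libraries 1 to 5 was 3.63, 2.17, 2.34, 1.32 and 0.718, so M2 RNA counts were below M3 counts in library 5. The difference from saline was -0.73 for OVA (exact two-sided permutation p = 0.127) and -0.54 for anti-IL-4Ra (p = 0.119, exact permutation). The log2 ratio of Des to Myh11 was -0.91 ± 0.16 with saline, -1.27 ± 0.21 with OVA and -1.35 ± 0.33 with anti-IL-4Ra. It was lower than saline by 0.36 with OVA (exact permutation p = 0.0159) and by 0.44 with anti-IL-4Ra (exact permutation p = 0.0238), and neither passed after adjustment over the 9 ratio tests (0.107 for both). The log2 ratio of Acta2 to Myh11 was -0.78 ± 0.17, -0.70 ± 0.28 and -0.79 ± 0.38 in the same order, with exact permutation p from 0.571 to 0.992. The smallest p that 5 against 5 libraries allow is 0.00794.

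By Pearson r of log2 CPM over the 15 libraries, the genes most like the mean of the 8 contractile members (Myocd included) were Actg2 (0.87), Tpm1 (0.86), Synpo2 (0.86), Tpm2 (0.86) and Sh3bgr (0.86), filament and muscle genes. Among the genes most like Chrm2 were Pam (0.98), Pdlim3 (0.96), Cyp2u1 (0.94) and Ndrg2 (0.93). Chrm3 was most like Leprel1 (0.89), Garem (0.88), Adcy9 (0.84), Tuba8 (0.84) and Nrarp (0.83). The r of single members with the contractile mean ran from 0.63 for Smtn to 0.96 for Myh11, and was 0.64 for Chrm2 and 0.67 for Chrm3. Each of the 8 contractile members is part of that mean, which raises its r. Chrm2 and Chrm3 are not part of it, so their r cannot be compared with the others. These are descriptions over libraries that share groups and scaling, with no test.

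Around the members, smooth muscle genes moved in both directions. Of 95 genes tested in 7 further lists, edgeR called 10 higher and 34 lower for OVA against saline (19.3% and 17.8% of all genes), with a median log2 change of -0.33 beside 0.02 over all genes. For anti-IL-4Ra against OVA 1 was called (0.302% of all genes), and 12 had an unadjusted p under 0.05 (5.68% of all genes). For anti-IL-4Ra against saline 7 were called higher and 28 lower (13.9% and 12.7% of all genes). These shares of all genes apply to each list below. Many of these genes are also expressed outside muscle.

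Among 24 other filament and contraction signalling genes, 1 rose and 6 fell in OVA lungs. Ppp1r14a, the kinase-activated inhibitor of myosin phosphatase, fell by 1.88 ± 0.33 on the log2 scale (adjusted p = 0.000608). Synm, the intermediate filament partner of desmin, fell by 1.21 ± 0.25 (adjusted p = 0.00194), Vcl, which anchors actin to adhesions, by 1.00 ± 0.22 (0.0025), and Pgm5 by 0.89 ± 0.24 (0.00858). Flna, the most abundant of the list, had a change of 0.10 (adjusted p = 0.56). In the anti-IL-4Ra group 7 of the 24 were lower than saline, with Ppp1r14a at -1.52 (adjusted p = 0.00366), Synm at -1.09 and Vcl at -0.94. Against OVA edgeR, DESeq2 and voom called 0 of the 24, with 3 at an unadjusted p under 0.05.

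Of 10 regulators of smooth muscle transcription, Elk1, which competes with myocardin for serum response factor, rose in OVA lungs (1.01, adjusted p = 0.000718), while Foxf1 (-1.25, 0.00406) and Gata6 (-0.73, 0.00175) fell. Srf itself was at -0.12 (adjusted p = 0.596). Against saline, anti-IL-4Ra lungs had 2 of the 10 higher and 3 lower.

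Of 23 muscarinic and cholinergic genes, 18 were tested, and 4 rose and 7 fell with OVA. Gna11, a Gq-family subunit that carries M3 signals, fell by 0.78 ± 0.12 on the log2 scale (adjusted p = 0.000303) and stood at -0.60 against saline with anti-IL-4Ra (0.00291). Grk5, a kinase that desensitises receptors, fell by 0.86 (adjusted p = 0.0025). Plcb2, a phospholipase that acts downstream of G proteins, rose by 0.71 (adjusted p = 0.00811), and Gnai2, the list's most abundant gene, fell by 0.41 (0.0159). For anti-IL-4Ra against OVA edgeR, DESeq2 and voom called 0 of the 18, with 2 at an unadjusted p under 0.05. The other muscarinic receptors were scarce: Chrm1 was tested and had a change of -0.39 (adjusted p = 0.205) with OVA, while Chrm4 had 15, 21 and 21 counts and Chrm5 4, 2 and 2 counts over the 5 libraries of the saline, OVA and anti-IL-4Ra groups.

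Of 11 other contracting receptors tested, 3 rose and 3 fell in OVA lungs, where 19.3% of all genes rose and 17.8% fell. Tacr1, the substance P receptor, rose from 2.09 to 18.9 CPM (log2 change 3.14 ± 0.53, adjusted p = 0.000497), Htr2a, a serotonin receptor, by 1.51 (0.000819) and Hrh1, a histamine receptor, by 1.10 (0.00286). Bdkrb2, the bradykinin receptor, fell by 1.12 (adjusted p = 0.00194) and Ednrb, an endothelin receptor, by 1.23 (0.003). With anti-IL-4Ra, Tacr1 was 2.23 above saline on the log2 scale (adjusted p = 0.0065) and Ednrb at -1.21 (0.00565). Against OVA edgeR, DESeq2 and voom called 0 of the 11, with 2 at an unadjusted p under 0.05.

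Among 12 genes of calcium handling, Cd38, which makes a calcium-releasing messenger, rose by 0.60 in OVA lungs (adjusted p = 0.00295) and 4 fell, among them Atp2b4 (-0.53, 0.00602), a calcium pump of the cell membrane. Cd38 was also higher with anti-IL-4Ra than with saline (0.58, adjusted p = 0.00626). Of 14 markers of vessel muscle and pericytes, 10 fell and none rose with OVA, with a median of -1.02. Pdgfrb, the growth factor receptor of mural cells, fell by 1.14 ± 0.16 (adjusted p = 0.000126) and Notch3 by 1.09 (0.000185). With anti-IL-4Ra 8 of the 14 were lower than saline, with Notch3 at -0.95 (adjusted p = 0.000838) and Pdgfrb at -0.92. Of 6 tested markers of airway muscle and myofibroblasts, Itga8 (-1.65, adjusted p = 0.00291) and Hhip (-0.87, 0.0494) fell with OVA. Tgfbi, a secreted matrix protein induced by TGF-β, was the single gene of the 95 called between the treated groups, higher with anti-IL-4Ra by 1.00 ± 0.13 (adjusted p = 0.000942). Markers of endothelium (5 of 5 called lower) and of lung epithelium (4 of 6) also fell with OVA, and 4 of 5 leukocyte markers rose, with 1 lower. The part of these other cells in the values above was not tested.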

How the data were processed

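RNA-seq of whole lung from 15 animals was analysed. The authors deposited 1 table of expected counts by gene symbol, not normalized, with a column for each animal. The submitters' processing notes name RSEM 1.2.15, Bowtie2 2.1.0 and build hg38, although the symbols are those of mouse; the annotation was not given in the sources used here. RSEM shares ambiguous reads by an estimate, and Acta2 and Myh11 had counts that were not whole in 11 of 15 libraries. The largest distance from a whole count was 0.12 for Acta2 and 0.38 for Myh11. How many reads were shared, and with which genes, remains uncertain. The labels' protocols name both ribosomal RNA depletion and oligo-dT purification, and strand-specific libraries with dUTP. Groups and replicate numbers come from the sample titles, which call replicates biological.

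Expected counts were rounded, filtered with filterByExpr, scaled by TMM and tested in a single quasi-likelihood fit over all 15 libraries (edgeR 4.0.16, R 4.3.3). P-values are two-sided and adjusted by Benjamini-Hochberg over 15905 genes; every adjusted p without another tool named is from this fit. SEs come from the F statistic. DESeq2 1.42.0, limma 3.58.1 (voom), covariates, other scaling and filters, and each library left out were alternatives. The test was checked on simulated counts. Exon lengths per gene are unions from GENCODE vM21. Ratios used exact permutation tests in SciPy 1.17.1 with 0.5 added to counts. From each list, genes were named from among the called genes with the 4 smallest p and the most abundant gene; Srf, Chrm1, Chrm4 and Chrm5 were added after their values were seen. The members and lists were chosen with earlier results of these data known. Some genes that the rule for named genes would give are not reported here.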

Additional observations from a re-analysis of the deposited data

Results flagged for a closer look

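In each group of 5 libraries and each of the 10 genes, the highest and lowest library was compared with its nearest neighbour, and a gap above 0.71 of the group's range was marked. Of 30 such groups 3 were marked. Chance marks about 1 in 20 of independent groups, but these share libraries, so that rate cannot measure an excess here. Myh11 in anti-IL-4Ra library 5 was at 367 CPM, far above the other 4 libraries of its group. Chrm2 in the same library was at 8.24 CPM, also far above the other 4. Des in OVA library 3 was at 173 CPM, far above the rest of its group. These libraries are the ones that stood highest for most of the 10 genes.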

How the results depend on the processing

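Depth limits Chrm3 most, which had the lowest level of the 10 genes. Over 25 other settings per gene, most estimates kept their direction and their side of the threshold (228, 245 and 212 of 250 for OVA against saline, anti-IL-4Ra against OVA and anti-IL-4Ra against saline). For the others the cause was not tested.

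No pairing by replicate number was seen: deviations of same-numbered libraries correlated at -0.584 to 0.365, and 1 of 15 libraries was most like its own number. With a replicate block, edgeR called 4625, 26 and 2891 genes in the 3 comparisons in place of 5898, 48 and 4236, and no member's call changed.

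For OVA against saline, members called higher numbered 1 with DESeq2 or the Rn45s covariate and 0 to 1 with single libraries left out. Members called lower numbered 1 with DESeq2, voom or the heart muscle covariate, 0 to 3 with single libraries left out and 3 without OVA library 3 and anti-IL-4Ra library 5. Over all genes the Rn45s covariate, which did not overlap between saline and OVA libraries, left 752 calls. For anti-IL-4Ra against OVA, DESeq2 called 128 genes. For anti-IL-4Ra against saline, members called lower numbered 0 with either covariate, 1 to 4 with single libraries left out and 5 without both libraries, and the covariates left 373 (Rn45s) and 1468 (heart muscle) genes called.

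Some log2 estimates changed sign, none of them called in the main test. With the Rn45s covariate, OVA against saline gave 0.76 for Cnn1 and 0.023 for Des. With it anti-IL-4Ra against saline gave 0.48 for Acta2, 0.46 for Myh11, 0.18 for Cnn1, 0.28 for Lmod1 and 0.31 for Myocd. With the heart muscle covariate the latter comparison gave 0.36 for Acta2, 0.29 for Myh11, 0.016 for Cnn1 and 0.14 for Myocd. Against OVA the same covariate gave 0.0096 for Myh11, 0.19 for Cnn1 and 0.20 for Chrm2. Without both libraries OVA against saline gave -0.057 for Myh11 and -0.019 for Lmod1, anti-IL-4Ra against saline gave -0.089 for Tagln, and the Acta2 to Myh11 ratio differed from saline by 0.024.

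With single libraries left out, OVA against saline ran from -0.0060 to 0.50 for Acta2, -0.11 to 0.38 for Myh11 and -0.071 to 0.35 for Lmod1. Anti-IL-4Ra against OVA ran from -0.58 to 0.0061 for Myh11 and -0.91 to 0.061 for Cnn1. Anti-IL-4Ra against saline ran from -0.28 to 0.067 for Acta2, -0.090 to 0.13 for Tagln and -0.18 to 0.0040 for Myocd. Differences in log2 ratio between the treated groups ran from -0.14 to 0.45 for Chrm2 to Chrm3, -0.20 to 0.034 for Des to Myh11 and -0.21 to 0.043 for Acta2 to Myh11, and against saline the last ran from -0.12 to 0.13.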
